A study of Mus musculus with 6 samples.

Results

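Single-nucleus RNA sequencing of the mouse left ventricle was examined for 9 genes of adrenergic, serotonin, angiotensin and endothelin signalling. They were Adrb1, Adra1a, Adra1b, Htr4, Agtr1a, Ace, Edn1, Ednra and Ednrb, taken by symbol from the 33696 genes counted, and each symbol matched 1 gene. Their levels are given as CPM, the UMI count of a gene scaled to the UMI total of a cell class in a library. A UMI is a molecular tag that counts an RNA molecule once.

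The 6 libraries fell into 3 groups of 2, all from male mice aged 12 weeks. WT-CD mice were wild type and ate control diet. R403Q-CD mice were heterozygous for a missense allele of the cardiac myosin gene Myh6, written Myh6+/R404Q (R403Q) in the labels, and ate the same diet. R403Q-EMPA mice carried that allele and ate the diet with empagliflozin (EMPA), an inhibitor of the sodium-glucose cotransporter SGLT2, at 0.15 mg per g, about 15 mg/kg body weight. Feeding started when the mice were 9 to 10 weeks old. The labels also name a diet period of 16 weeks, which these ages do not allow. The allele is in the germ line and so is present in every cell, while Myh6 is chiefly a gene of cardiomyocytes. Each library came from frozen tissue, and the labels do not say whether the libraries of a group came from separate animals, so every p-value measures only the spread between these libraries.

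Noradrenaline and adrenaline act on the heart through beta receptors, which couple to Gs and adenylyl cyclase and raise rate and force, and through alpha-1 receptors, which couple to Gq and phospholipase C. Angiotensin-converting enzyme makes angiotensin II, whose type 1 receptor also couples to Gq, and endothelin-1 is a vasoconstrictor peptide made largely by endothelium that acts on ETA and ETB receptors. All of these pathways are known for their part in cardiac hypertrophy and fibrosis. The comparisons ask how the genes of these pathways are expressed in hearts with the mutation, with and without EMPA.

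The libraries held 31787308 to 45397128 UMIs, and 45889 of 69249 barcodes were kept as nuclei, with median depths of 2655 to 4066 UMIs per library. The nuclei formed 24 clusters, of which 23 were named for 11 classes by marker genes and 10 classes were large enough in every library to be tested. The largest were fibroblast-like (14128 nuclei), endothelial-like (12529) and cardiomyocyte-like (6903). All 12 cardiomyocyte, all 12 fibroblast and all 12 endothelial markers were at least 2-fold higher in their class than outside it. No cluster met the rule for adipocytes, although the labels list epicardial fat. R403Q-EMPA replicate 1 stood apart. The summed level of 7 atrial marker genes lay at 334 to 1498 CPM in its classes, and in no other library did it pass 371. In cardiomyocyte-like nuclei nearly all of this was Nppa. The atrial gene Bmp10 was at 0 in every library. Sln was at 0 in the WT-CD and R403Q-CD libraries and had 17 and 2 UMIs in R403Q-EMPA. Myl7 lay at 0.354 and 0 CPM for WT-CD, 0.199 and 0.172 for R403Q-CD, and 6.91 and 2.97 for R403Q-EMPA. Myl4 (11.6 CPM) and Dkk3 (3.88 CPM) were also highest in R403Q-EMPA replicate 1, while Stard10 was lowest in that library. Many changes of R403Q-EMPA are therefore given with and without this library. Where no value without it is given, the change includes it.

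Of the 9 genes, 6 had a promoter window of 300 bases, from 250 before to 50 after the start, in RefSeq on GRCm38.p6, an earlier mouse build than the GRCm39 of the counts. No window was found for Adra1a, Htr4 and Agtr1a. The windows of the endothelin genes are shown because Edn1 and its receptor genes form 1 ligand and receptor system and because Edn1 had the smallest adjusted p of the 9 genes within a cluster. Capitals mark motifs, searched on both strands.
Edn1, chr13:42301226-42301525, plus strand: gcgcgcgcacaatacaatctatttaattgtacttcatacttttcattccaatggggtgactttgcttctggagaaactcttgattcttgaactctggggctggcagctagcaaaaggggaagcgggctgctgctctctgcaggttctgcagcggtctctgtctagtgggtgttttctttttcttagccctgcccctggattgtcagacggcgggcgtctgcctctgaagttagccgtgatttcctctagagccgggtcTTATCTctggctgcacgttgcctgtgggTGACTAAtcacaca
Ednra, chr8:77724403-77724702, minus strand: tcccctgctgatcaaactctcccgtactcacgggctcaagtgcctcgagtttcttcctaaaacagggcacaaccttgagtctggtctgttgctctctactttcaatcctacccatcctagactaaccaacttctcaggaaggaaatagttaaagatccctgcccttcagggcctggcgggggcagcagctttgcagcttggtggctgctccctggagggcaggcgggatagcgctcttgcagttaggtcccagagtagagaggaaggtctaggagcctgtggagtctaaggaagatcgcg
Ednrb, chr14:103843652-103843951, minus strand: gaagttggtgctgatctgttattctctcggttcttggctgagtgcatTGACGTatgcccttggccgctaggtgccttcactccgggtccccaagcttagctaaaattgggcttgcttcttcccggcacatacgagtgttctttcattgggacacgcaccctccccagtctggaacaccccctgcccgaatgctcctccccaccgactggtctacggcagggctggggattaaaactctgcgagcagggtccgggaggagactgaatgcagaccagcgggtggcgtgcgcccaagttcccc
The Edn1 window held TTATCT, the reverse of the GATA motif AGATAA, at base 259, and the AP-1 motif TGACTAA at base 287. The Ednrb window held the cAMP response element core TGACGT at base 48. Of 32851 windows of this length, 11.2% held the GATA motif, 2.35% the AP-1 motif and 7.51% the cAMP motif. The other motifs searched were CACGTG (7.15% of windows), TATAAA (13.6%), CCGGAAG (8.86%) and the CArG box (1.63%), and the Ednra window held none of the 7. A match is a run of letters and says nothing of binding.

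Of the adrenergic receptors, Adra1a and Adra1b, which encode the alpha-1A and alpha-1B receptors, were found mostly in cardiomyocyte-like nuclei. These held 92.6% of the 18456 UMIs of Adra1a and 97.0% of the 6085 UMIs of Adra1b. Mean levels there over 6 libraries were 274 CPM for Adra1a (145 to 369.6) and 95.2 CPM for Adra1b (66.3 to 161). The next classes lay far below, at 20.3 CPM for Adra1a in fibroblast-like nuclei (4.46 to 33.8) and at 6.38 CPM for Adra1b in lymphoid-like nuclei (0 to 26.9), and in neither case did the libraries overlap. Further down, neighbouring classes overlapped for both genes, except at the step to epicardial-like nuclei, which held no Adra1b UMI.

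Adrb1, the beta-1 receptor and the main target of noradrenaline in ventricular muscle, was spread differently. It lay at 59.3 CPM in cardiomyocyte-like nuclei (51.3 to 72.9) and at 41.2 CPM in myeloid-like nuclei (26.5 to 51.1), ranges that nearly met. The next, smooth muscle-like nuclei, lay at 11.2 CPM (0 to 29.4), which overlapped the myeloid range. Cardiomyocyte-like nuclei are deeper, so each nucleus was also thinned to 1000 UMIs. On that scale 5.89% of cardiomyocyte-like and 4.28% of myeloid-like nuclei held an Adrb1 UMI, compared with 0.0854% of fibroblast-like nuclei. The unthinned shares were 37.0% of cardiomyocyte-like and 0.425% of fibroblast-like nuclei. Adra1a was found in 19.2% of thinned cardiomyocyte-like nuclei and Adra1b in 7.88%, while in myeloid-like nuclei, which served as background, these shares were 0.428% and 0.0428%. The unthinned shares in cardiomyocyte-like nuclei were 55.5% for Adra1a and 38.8% for Adra1b. The median depths were 8535 UMIs in cardiomyocyte-like and 2970.5 in myeloid-like nuclei.

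Of the angiotensin genes, Agtr1a, the type 1A receptor, was highest in pericyte-like nuclei, at 142 CPM (102 to 158). Pericytes wrap capillaries and the receptor mediates constriction. Cardiomyocyte-like nuclei came second, at 59.6 CPM (49.6 to 63.5), with no overlap, and these deeper nuclei held 60.4% of its 6274 UMIs. Epicardial-like nuclei followed at 13.3 CPM (0 to 32.6), overlapping fibroblast-like nuclei at 10.3 CPM (6.27 to 13.6). The thinned share of nuclei with an Agtr1a UMI was 11.8% in pericyte-like and 5.67% in cardiomyocyte-like nuclei, with a background of 0.214% in myeloid-like nuclei.

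Ace, the converting enzyme, was highest in fibroblast-like nuclei, at 146 CPM (132 to 157), followed without overlap by endothelial-like nuclei at 52.3 CPM (40.9 to 93.2). Endocardial-like (20.6 CPM), lymphatic endothelial-like (16.6) and myeloid-like nuclei (15.2) overlapped each other. Within the myeloid-like class 91 of the 126 Ace UMIs lay in a cluster of 123 nuclei led by Cd244a, Adgre4 and Ccr2, at 227 CPM, compared with 4.66 CPM in the larger cluster led by F13a1, Mrc1 and Cd163. Smooth muscle-like nuclei held no Ace UMI. The thinned share was 12.4% of fibroblast-like and 5.17% of endothelial-like nuclei, with 0.219% of cardiomyocyte-like nuclei as background.

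The endothelin genes divided between cell classes. Edn1, the gene of the endothelin-1 precursor, had its highest mean in endocardial-like nuclei, which line the chambers, at 35.9 CPM (18.1 to 47.7). Endothelial-like nuclei followed at 21.3 CPM, a mean that includes 57.3 CPM in R403Q-EMPA replicate 1 beside 11.3 to 20.3 in the other 5 libraries. Within the endothelial-like class it was concentrated in a cluster led by Sema3g, Gja5 and Sox17, genes known from arterial endothelium, at 94.6 to 182 CPM, compared with 0.900 to 22.5 CPM in the 3 larger clusters. Fibroblast-like nuclei lay at 13.3 CPM (10.0 to 22.6). The ranges of these 3 classes overlapped, and in WT-CD replicate 1 fibroblast-like nuclei (14.6 CPM) were above endothelial-like nuclei (13.5 CPM).

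Ednra, the ETA receptor that mediates constriction and growth, was a gene of contractile cells. It lay at 675 CPM in pericyte-like (587 to 737), 502 CPM in smooth muscle-like (423 to 607) and 462 CPM in cardiomyocyte-like nuclei (337 to 585), and each of these overlapped the next. A long step without overlap followed to fibroblast-like nuclei at 37.2 CPM (29.4 to 63.8) and lymphoid-like nuclei at 0 to 188 CPM. The lymphoid mean of 48.8 CPM rests on R403Q-EMPA replicate 2, which held 21 of its 39 UMIs, and the other 5 libraries lay at 0 to 50.0 CPM. The 12 cardiomyocyte markers summed to 20291 CPM in the lymphoid-like nuclei of that library and to 3275 to 6201 CPM in the others, and their part in this level was not tested. Ednrb, the ETB receptor, which in endothelium clears endothelin and releases nitric oxide, lay at 375 CPM in endocardial-like nuclei (303 to 537), 203 CPM in myeloid-like (129 to 257), 145 CPM in pericyte-like (74.6 to 257) and 128 CPM in endothelial-like nuclei (110.5 to 157). In cardiomyocyte-like nuclei, where Ednra was high, Ednrb lay at 2.65 CPM (1.39 to 3.07). In pericyte-like nuclei, with a median of 2634 UMIs, the thinned share of nuclei with a UMI was 44.8% for Ednra (73.2% unthinned) and 9.77% for Ednrb (20.1% unthinned). As background, Ednra was found in 0.471% of thinned myeloid-like nuclei and Ednrb in 0.408% of thinned cardiomyocyte-like nuclei.

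Htr4, a serotonin receptor that couples to Gs and is known mainly from atrial muscle, had the fewest UMIs of the 9 genes, 147 in 79 nuclei. Cardiomyocyte-like nuclei held 74.8% of them at a mean of 1.57 CPM (0.116 to 5.24). The highest mean, 18.3 CPM in epicardial-like nuclei (0 to 55.3), rests on 16 UMIs and overlapped the cardiomyocyte range. No Htr4 UMI was seen in lymphatic endothelial-like, lymphoid-like or smooth muscle-like nuclei.

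**Figure D1:**
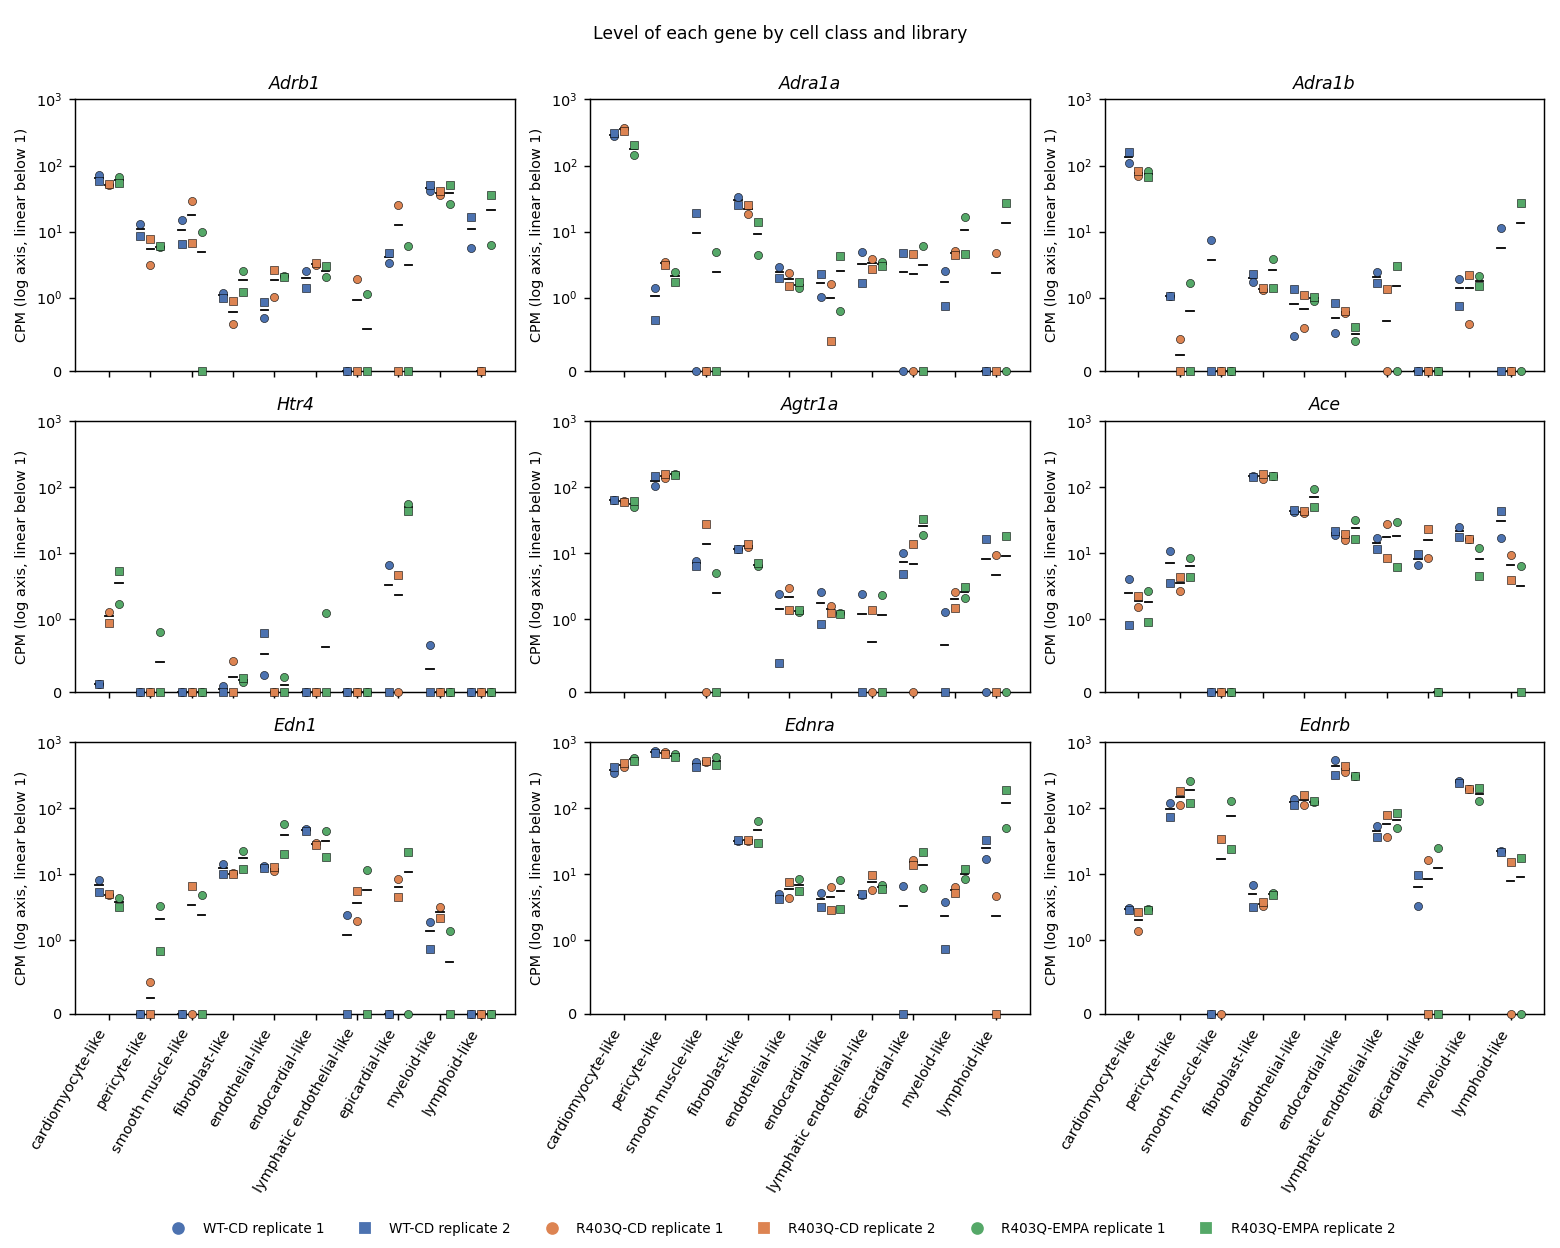
CPM of each gene in the 10 tested classes, on a log axis that is linear below 1, with 1 point per library and a bar at each group's mean. Adra1a and Adra1b stand apart in cardiomyocyte-like nuclei, Agtr1a and Ednra are highest in pericyte-like nuclei (142 and 675 CPM), Ace in fibroblast-like (146 CPM) and Ednrb in endocardial-like nuclei (375 CPM).

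The genes whose mean levels followed each gene most closely over the 10 classes, among 15669 genes compared, were named by Pearson's r of log2(CPM + 1). For the adrenergic receptors they were Vis1 (0.93) and Ndufa9 (0.92) for Adrb1, Rgs22 and Nkain1 (both 0.97) for Adra1a, and Gm12092 (0.99) and Asb15 (0.98) for Adra1b. For the endothelin genes they were Gm42699 (0.89) and Inhbb (0.87) for Edn1, Lrrtm3 and Gm30624 (both 0.97) for Ednra, and Smagp (0.93) and Tbkbp1 (0.89) for Ednrb. Agtr1a was followed by Isca1 and Cstdc2 (both 0.92), Ace by Dnpep (0.93) and Aida (0.91), and Htr4 by Cdh8 and Gm49083 (both 0.99). The classes were made from the same nuclei and share libraries, so these values are descriptions over 10 points.

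For the comparison of groups, UMIs were summed per library and class, and 40 combinations of gene and class passed the filter on low counts. That filter asks for counts in as many libraries as the smallest group holds, so a gene can pass it through a single group where it is high. A change was called at an adjusted p under 0.05 in edgeR's quasi-likelihood test, with adjustment over all genes of the class. Counts of calls by DESeq2 are given without the share of all genes that it called, so they cannot be set against a background. The 3 comparisons share libraries, so their values are set side by side and are not independent. Where a library is left out, its group holds 1 library, whose spread is taken from the other groups. Such a fit has less power, so a p-value that passes or misses the threshold in it says little of stability, and the fold change is given beside it.

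R403Q-CD compared with WT-CD gave no called change in the 40 combinations. The edgeR test called 0.0151% of all gene and class combinations in that comparison, and 5 of the 40 (12.5%) had an unadjusted p under 0.05, compared with 4.31% over all genes. DESeq2 called 1, Adra1b in cardiomyocyte-like nuclei. In that class, with 0.0628% of all genes called, 0 of the 9 genes were called and 3 had an unadjusted p under 0.05, compared with 6.60% of all genes of the class.

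R403Q-EMPA compared with R403Q-CD gave no called change either, with 0.337% of all combinations called. Of the 40, 7 (17.5%) had an unadjusted p under 0.05, compared with 9.72% over all genes, and DESeq2 called 3. These were Adra1a in cardiomyocyte-like and in fibroblast-like nuclei and Edn1 in endothelial-like nuclei. Among cardiomyocyte-like nuclei the share called over all genes was 0.230%, with 0 of the 9 genes called and 2 at an unadjusted p under 0.05, compared with 12.3% of all genes of the class.

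R403Q-EMPA compared with WT-CD gave 2 called changes of 40, both in cardiomyocyte-like nuclei, with 1.37% of all combinations called. Htr4, with 1 UMI in each WT-CD library, rose and Adra1b fell. In that class 3.91% of all genes were called, 5 of the 9 genes had an unadjusted p under 0.05, compared with 19.2% of all genes of the class, and DESeq2 called 3. Over the 40 combinations, 14 (35.0%) had an unadjusted p under 0.05, compared with 12.7% over all genes, and the median log2 fold change was 0.01.

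**Figure D2:**
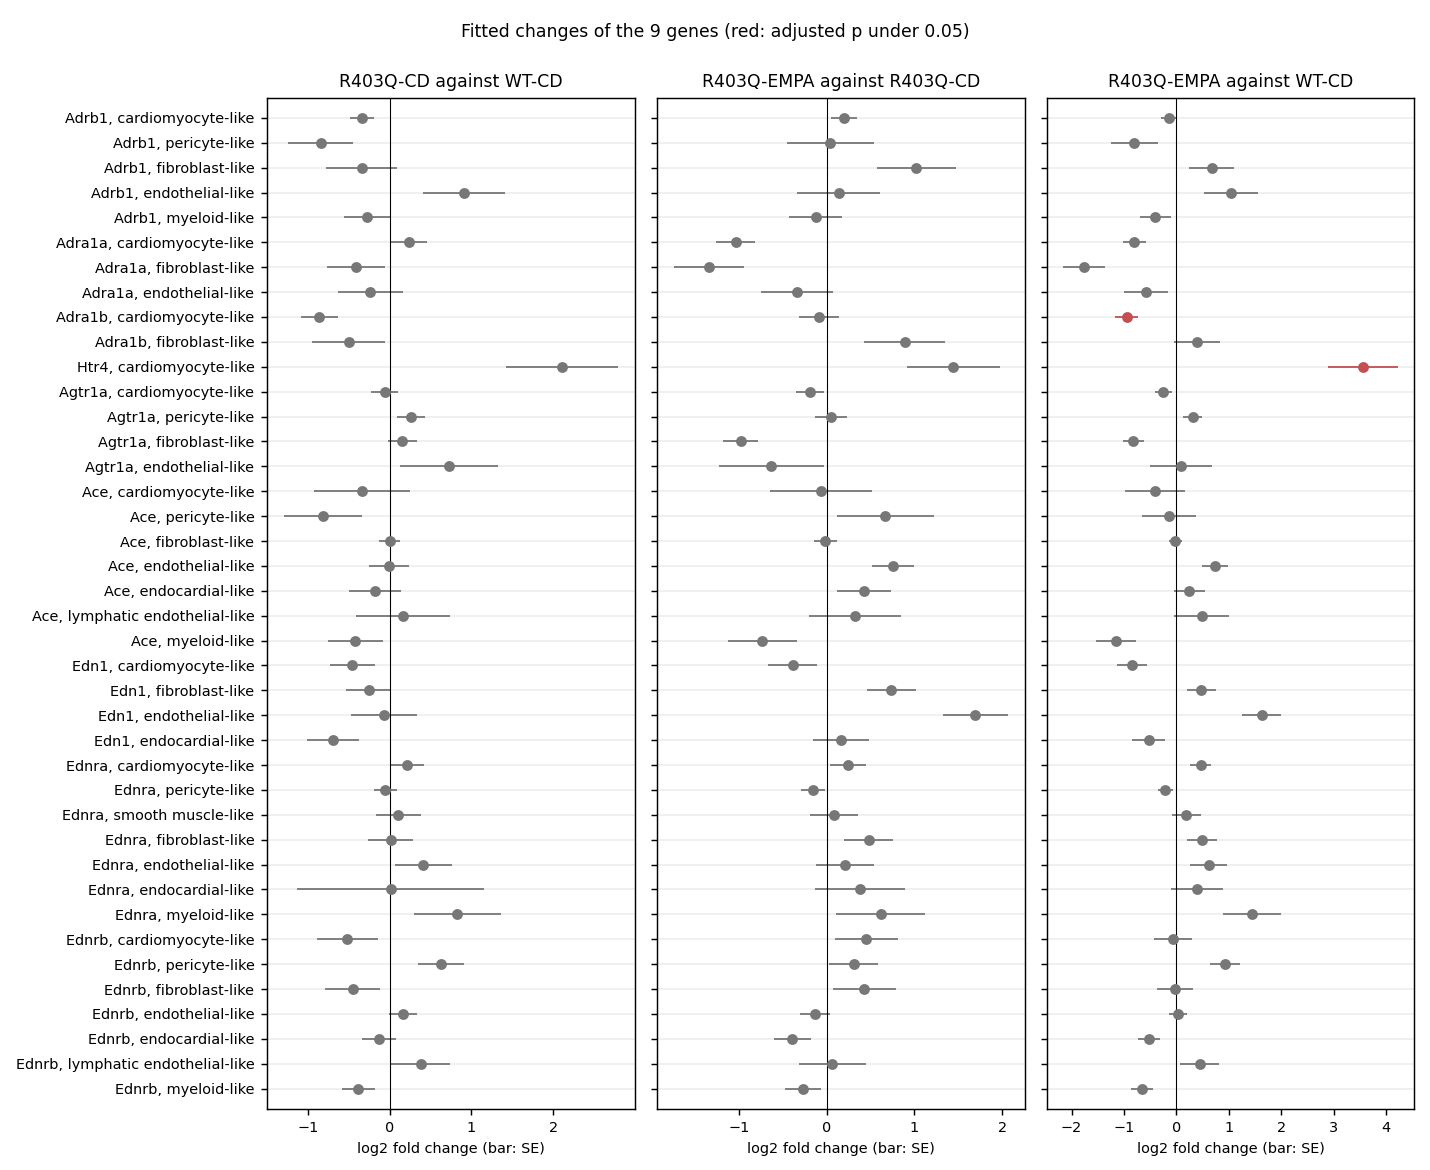
Log2 fold change with its SE for the 40 combinations of gene and class in the 3 comparisons, each with its own axis, and called changes in red. Only Adra1b (−0.95) and Htr4 (3.55) in cardiomyocyte-like nuclei, both in R403Q-EMPA compared with WT-CD, are red.

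Adra1b in cardiomyocyte-like nuclei lay at 110.4 and 161 CPM in the WT-CD libraries, 69.6 and 82.4 for R403Q-CD, and 81.8 and 66.3 for R403Q-EMPA. Both WT-CD libraries were above all 4 libraries with the mutation, and the R403Q-CD and R403Q-EMPA libraries overlapped. The log2 fold change was −0.95 ± 0.23 (SE, adjusted p = 0.0489) for R403Q-EMPA compared with WT-CD. It was −0.86 ± 0.23 (adjusted p = 0.30) for R403Q-CD compared with WT-CD, which was not called. The call did not hold without WT-CD replicate 2 (−0.53, adjusted p = 0.0988), without R403Q-EMPA replicate 1 (−1.06, adjusted p = 0.166) or without R403Q-EMPA replicate 2 (−0.84, adjusted p = 0.206). Without either R403Q-CD library the fold change was −0.94 in both fits (adjusted p = 0.0842 and 0.0827). With no filter on mitochondrial RNA it was called in both comparisons with WT-CD (adjusted p = 0.0264 and 0.0304).

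Cardiomyocyte-like nuclei consisted of 3 clusters, whose shares differed between libraries. The main one, led by Mylk4, Kcnj3 and Fgf13, held 91.4% and 89.2% of them for WT-CD, 79.9% and 61.9% for R403Q-CD, and 30.3% and 57.1% for R403Q-EMPA. A second, led by Ryr3, Nppa, Ankrd1 and Nppb, held 4.10% and 2.54%, 7.65% and 16.5%, and 47.8% and 33.0%, in the same order. Nppa and Nppb are natriuretic peptide genes that ventricular muscle makes under load. In the main cluster Adra1b lay at 111 and 162 CPM for WT-CD, 69.8 and 86.8 for R403Q-CD, and 104 and 73.0 for R403Q-EMPA. In the Nppb cluster it lay at 115 and 114 CPM for WT-CD (30 to 44 UMIs), 60.5 and 62.9 for R403Q-CD, and 64.8 and 55.1 for R403Q-EMPA. In both clusters the WT-CD libraries were above the others. Within the main cluster the change of R403Q-EMPA compared with WT-CD was −0.70 ± 0.23 (adjusted p = 0.168), which was not called.

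Adra1a in cardiomyocyte-like nuclei lay at 280.3 and 309.7 CPM for WT-CD, 369.6 and 334 for R403Q-CD, and 145 and 207 for R403Q-EMPA. Both R403Q-EMPA libraries were the lowest of the 6 and both R403Q-CD libraries the highest, with no overlap between groups. The log2 fold change was −1.04 ± 0.22 (adjusted p = 0.0979) compared with R403Q-CD and −0.80 ± 0.22 (adjusted p = 0.0794) compared with WT-CD, which edgeR did not call. Without R403Q-EMPA replicate 1 the values were −0.78 and −0.53. In the main cluster Adra1a lay at 286 and 315 CPM for WT-CD, 384 and 359 for R403Q-CD, and 209 and 242 for R403Q-EMPA, in the same order as in the class. In the Nppb cluster it was lower in every library than in the main cluster, at 191 and 144, 239.8 and 233, and 108 and 144 CPM. Within the main cluster the difference between R403Q-EMPA and R403Q-CD was −0.76 ± 0.19 (adjusted p = 0.150), which was not called. The part of the shift in clusters in the level of the whole class was not tested.

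**Figure D3:**
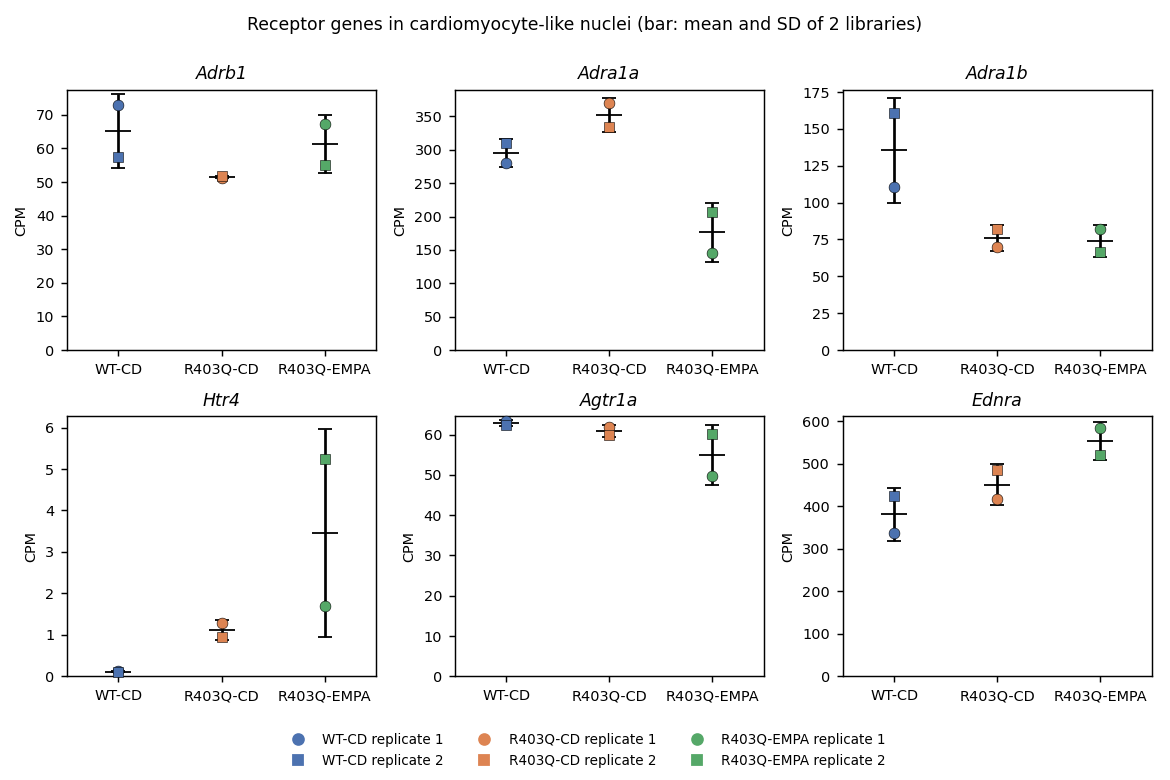
CPM of the 6 receptor genes in cardiomyocyte-like nuclei by group, with 1 point per library and the mean and SD of 2 libraries. For Adra1a the R403Q-EMPA libraries are lowest (145 and 207 CPM), for Adra1b the WT-CD libraries are highest (110.4 and 161 CPM), and Htr4 rests on few UMIs.

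Htr4 in cardiomyocyte-like nuclei gave 1 UMI in each WT-CD library, 13 and 11 for R403Q-CD, and 24 and 60 for R403Q-EMPA, or 0.118 and 0.116, 1.29 and 0.944, and 1.69 and 5.24 CPM. The 3 groups did not overlap. The UMIs came from 1 nucleus in each WT-CD library, 5 in each R403Q-CD library, and 12 and 33 in the R403Q-EMPA libraries, with at most 7 in a single nucleus. The ratio was 9.47 (95% interval 2.35 to 82.7) for R403Q-CD compared with WT-CD and 2.96 (1.86 to 4.88) for R403Q-EMPA compared with R403Q-CD. These exact intervals cover counting error only, and UMIs of 1 nucleus are not independent. With 1 UMI in each WT-CD library, Htr4 passed the filter on low counts only through libraries with the mutation, where it is higher. The fitted log2 fold change of R403Q-EMPA compared with WT-CD was 3.55 ± 0.67 (adjusted p = 0.0202). It was 4.10 (adjusted p = 0.0181) without R403Q-EMPA replicate 1 and 2.55 (adjusted p = 0.0741) without R403Q-EMPA replicate 2. Without WT-CD replicate 1 it was 3.54 (adjusted p = 0.0734), and without WT-CD replicate 2 it was 3.62 (adjusted p = 0.0711).

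Within the Nppb cluster Htr4 had 0 UMIs in both WT-CD libraries, 12 and 4 for R403Q-CD, and 15 and 38 for R403Q-EMPA. The cluster held 46 and 18 nuclei for WT-CD, 74 and 161 for R403Q-CD, and 736 and 525 for R403Q-EMPA. With so few WT-CD nuclei, 0 UMIs does not place WT-CD below the other groups. At these depths no order between R403Q-CD and R403Q-EMPA could be read in this cluster either. R403Q-CD replicate 1 had the highest level (14 CPM) and R403Q-CD replicate 2 the lowest of the 4 (1.71 CPM). Only 1 of the cardiomyocyte-like nuclei with an Htr4 UMI also held 2 or more UMIs of the atrial genes Sln, Myl7, Myl4 and Bmp10. These genes had only 19, 139, 440 and 0 UMIs in the 6903 nuclei of the class, so few nuclei of any kind could reach 2. The count therefore says nothing of an atrial source, which was not tested. In epicardial-like nuclei Htr4 gave 2 and 0 UMIs for WT-CD, 0 and 1 for R403Q-CD, and 9 and 4 for R403Q-EMPA. The last 13 came from 4 and 3 nuclei, and the ratio to R403Q-CD was 17.3 (2.60 to 735), with no test since the gene did not pass the filter there.

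Adrb1, Agtr1a and Ednra gave no called change in cardiomyocyte-like nuclei. Adrb1 lay at 72.9 and 57.4 CPM for WT-CD, 51.3 and 51.8 for R403Q-CD, and 67.4 and 55.1 for R403Q-EMPA, and the difference of R403Q-CD from WT-CD was −0.34 ± 0.15 (adjusted p = 0.730). Agtr1a lay between 59.8 and 63.5 CPM in the 4 libraries on control diet and at 49.6 and 60.2 in R403Q-EMPA. Ednra lay at 337 and 425 CPM for WT-CD, 417 and 485 for R403Q-CD, and 585 and 521 for R403Q-EMPA. Both R403Q-EMPA libraries were above the other 4, and the difference from WT-CD was 0.46 ± 0.20 (adjusted p = 0.255). In the main cluster Ednra kept this order, at 335 and 420.2, 404 and 464, and 560.2 and 521 CPM. Edn1, at 8.26 and 5.32 CPM for WT-CD, 4.78 and 4.98 for R403Q-CD, and 4.37 and 3.23 for R403Q-EMPA, was low in this class, with a difference of −0.85 ± 0.28 (adjusted p = 0.135) between R403Q-EMPA and WT-CD.

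**Figure D4:**
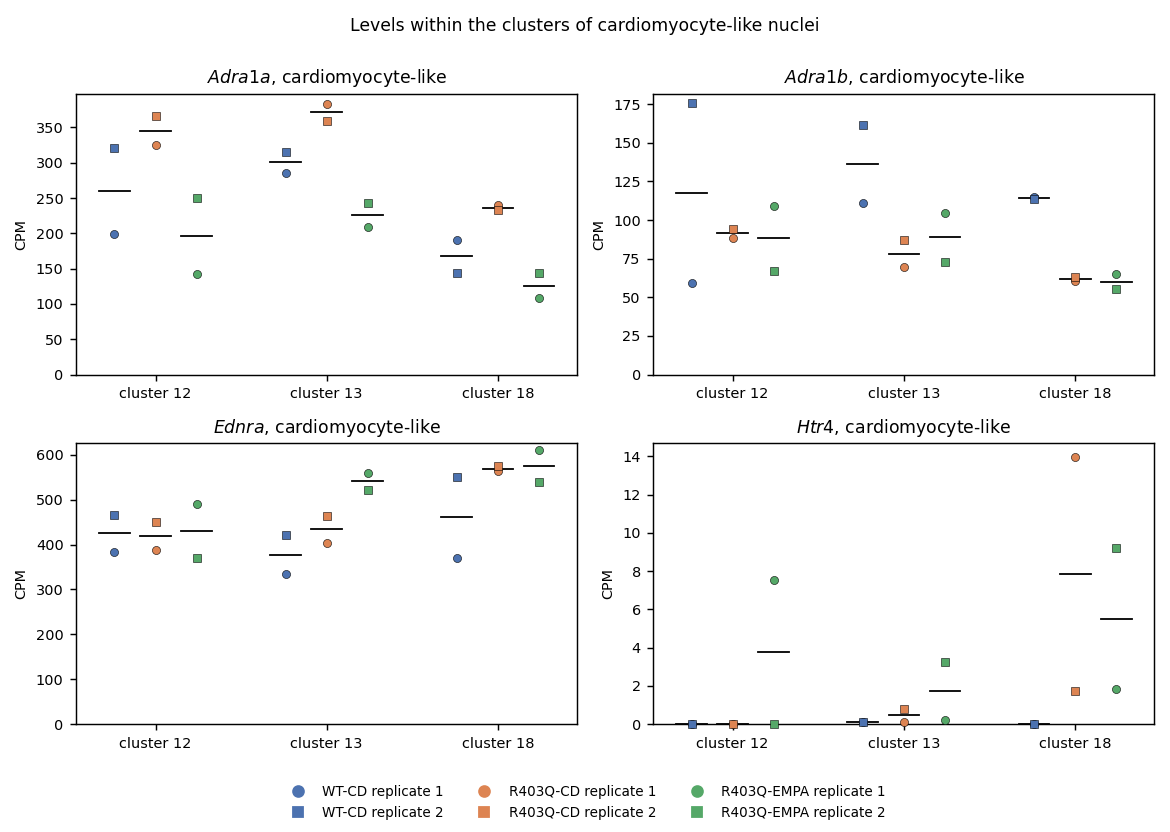
CPM of 4 receptor genes within the 3 cardiomyocyte-like clusters (12, with Nppa and Rgs6 among its leading genes; 13, the main cluster; 18, the Nppb cluster), with 1 point per library and a bar at each group's mean. Adra1a in cluster 13 is lowest in both R403Q-EMPA libraries (209 and 242 CPM), and Adra1b in cluster 18 is highest in both WT-CD libraries (115 and 114 CPM).

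In endothelial-like nuclei Edn1 lay at 13.5 and 12.6 CPM for WT-CD, 11.3 and 12.9 for R403Q-CD, and 57.3 and 20.3 for R403Q-EMPA. Both R403Q-EMPA libraries were above the other 4, and replicate 1 was far above replicate 2. The log2 fold change was 1.69 ± 0.37 (adjusted p = 0.159) compared with R403Q-CD and 1.62 ± 0.38 (adjusted p = 0.114) compared with WT-CD, which edgeR did not call. Without R403Q-EMPA replicate 1 the values were 0.72 (adjusted p = 0.783) and 0.64 (adjusted p = 0.601). The Gja5 cluster, in which Edn1 is high, made up 23.6% of endothelial-like nuclei in R403Q-EMPA replicate 1 and 6.79% to 11.3% in the other 5 libraries.

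Fits within single clusters were therefore added after the data were seen, and covered 61 combinations of gene and cluster in 16 clusters. R403Q-EMPA compared with R403Q-CD gave 1 called change among them, with 0.332% of all combinations called, and 12 (19.7%) at an unadjusted p under 0.05, compared with 8.28% over all genes. For R403Q-EMPA compared with WT-CD 3 were called, with 0.892% of all combinations called, and 18 (29.5%) had such a p, compared with 10.5% over all genes. For R403Q-CD compared with WT-CD edgeR called 0, with 0.0224% of all combinations called, and 5 (8.20%) had such a p, compared with 4.37% over all genes. DESeq2 was not run within clusters.

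Without R403Q-EMPA replicate 1, 67 combinations in 17 clusters were tested. R403Q-EMPA compared with WT-CD then gave 0 calls in edgeR, with 0.257% of all combinations called, and 9 (13.4%) at an unadjusted p under 0.05, compared with 7.48% over all genes. R403Q-EMPA compared with R403Q-CD gave 1 call, with 0.200% of all combinations called, and 13 (19.4%) at such a p, compared with 6.12%. That call was Ednra in the lymphoid-like cluster led by Skap1, Lef1 and Il7r (adjusted p = 0.0362), a combination that was tested only without this library. It sets 1 library with 16 UMIs against libraries without a UMI, so its fitted fold change is not given. Ednra had 3 and 2 UMIs there for WT-CD, 0 and 0 for R403Q-CD, and 8 and 16 for R403Q-EMPA, and the cardiomyocyte markers were highest in the lymphoid-like nuclei of R403Q-EMPA replicate 2, as given above.

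Edn1 was called in the endothelial-like cluster led by Car4, Ablim3 and Nav3, the largest of that class. It lay at 4.55 and 1.15 CPM for WT-CD (6 and 3 UMIs), 1.53 and 2.34 for R403Q-CD (5 and 8 UMIs), and 22.5 and 10.1 for R403Q-EMPA (81 and 11 UMIs). Both R403Q-EMPA libraries were above the other 4. With 3 to 8 UMIs in the libraries on control diet, Edn1 passed the filter on low counts in this cluster through the R403Q-EMPA libraries, where it is high. The change was 2.76 ± 0.45 (adjusted p = 0.00973) compared with R403Q-CD and 2.54 ± 0.50 (adjusted p = 0.0196) compared with WT-CD. Without R403Q-EMPA replicate 1 it was 1.98 (adjusted p = 0.610) and 1.75 (adjusted p = 0.496), which was not called, and R403Q-EMPA replicate 2 alone was also above the 4 libraries on control diet. In the Gja5 cluster Edn1 lay at 146 and 104 CPM for WT-CD, 94.6 and 95.2 for R403Q-CD, and 182 and 159 for R403Q-EMPA, with a difference of 0.83 ± 0.22 from R403Q-CD (adjusted p = 0.157).

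Ace in endothelial-like nuclei lay at 42.2 and 44.7 CPM for WT-CD, 40.9 and 43.3 for R403Q-CD, and 93.2 and 49.5 for R403Q-EMPA. As in the case of Edn1, both R403Q-EMPA libraries were above the rest and replicate 1 was the highest. The difference from WT-CD was 0.74 ± 0.25 (adjusted p = 0.256) and from R403Q-CD 0.75 ± 0.24 (adjusted p = 0.355). Without R403Q-EMPA replicate 1 these were 0.20 and 0.22. In the Car4 cluster Ace lay at 19.7 and 23.1, 21.1 and 25.1, and 53.8 and 35.8 CPM, and the change from WT-CD was called, at 1.06 ± 0.23 (adjusted p = 0.0364), but not without that library (0.71, adjusted p = 0.522). In the Gja5 cluster it lay at 110.2 and 77.9, 99.5 and 92.5, and 158 and 174 CPM, and was not called (0.83 ± 0.24, adjusted p = 0.147, compared with WT-CD). The cluster led by Kirrel3 and Col13a1 (2974 nuclei) had another order. Ace lay in it at 53.8 and 62.2 CPM for WT-CD, 59.8 and 66.0 for R403Q-CD, and 115 and 36.3 for R403Q-EMPA, and Edn1 at 5.82 and 4.61, 8.10 and 6.50, and 22.0 and 4.19 CPM. For both genes R403Q-EMPA replicate 1 was the highest and replicate 2 the lowest of the 6 libraries. Compared with R403Q-CD the values were 0.35 for Ace and 0.96 for Edn1 with all libraries, and −0.79 (adjusted p = 0.739) and −0.67 (adjusted p = 0.948) without replicate 1. Summed over endothelial-like nuclei, the atrial markers lay at 524 CPM in R403Q-EMPA replicate 1 and 94.6 or less elsewhere, and their part in these results was not tested.

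In fibroblast-like nuclei, the class with the highest Ace, that gene lay at 147 and 142 CPM for WT-CD, 132 and 157 for R403Q-CD, and 146 and 148 for R403Q-EMPA. Adra1a lay at 33.8 and 25.5 CPM for WT-CD, 18.8 and 25.5 for R403Q-CD, and 4.46 and 14 for R403Q-EMPA. Both R403Q-EMPA libraries were below the rest. The difference was −1.76 ± 0.40 (adjusted p = 0.0789) from WT-CD and −1.35 ± 0.40 (adjusted p = 0.217) from R403Q-CD, and −1.09 and −0.68 without R403Q-EMPA replicate 1. Fibroblast-like Adra1a came mostly from the cluster led by Grm8, Kcnip1 and Gna14, which held 34.6% and 39.2% of these nuclei for WT-CD, 39.7% and 36.8% for R403Q-CD, and 9.29% and 18.4% for R403Q-EMPA. Within it Adra1a lay at 71.5 and 50.5, 28.8 and 36.4, and 27.8 and 14.8 CPM. Here the WT-CD libraries were above all 4 others, and the fall of R403Q-EMPA from WT-CD was called, at −1.57 ± 0.30 (adjusted p = 0.0316). It was −2.01 (adjusted p = 0.0688) without R403Q-EMPA replicate 1. For R403Q-CD compared with WT-CD the difference within the cluster was −0.89 ± 0.21 (adjusted p = 0.671).

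Agtr1a in fibroblast-like nuclei lay at 11.6 and 11.5 CPM for WT-CD, 12.2 and 13.6 for R403Q-CD, and 6.27 and 6.99 for R403Q-EMPA. Both R403Q-EMPA libraries were below the rest, and they lay close together. The difference was −0.98 ± 0.20 (adjusted p = 0.0891) from R403Q-CD and −0.83 ± 0.20 (adjusted p = 0.0991) from WT-CD, not called. It was −0.88 and −0.73 without R403Q-EMPA replicate 1. A cluster led by Ltbp2, Postn and Cilp, genes known from activated fibroblasts, held 32.8% of these nuclei in that library, 7.42% in R403Q-EMPA replicate 2 and 1.85% to 3.90% in the others, and in it Agtr1a lay at 0 to 4.67 CPM. In the Grm8 cluster Agtr1a lay at 11.7 and 13.2, 13.4 and 17.3, and 9.82 and 6.83 CPM (6 UMIs in each R403Q-EMPA library), and in the cluster led by Hmcn2, Fgf10 and C7 at 15.9 and 11.3, 13.1 and 12.0, and 8.0 and 8.64 CPM. In both of these clusters the R403Q-EMPA libraries were the lowest, with no call.

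**Figure D5:**
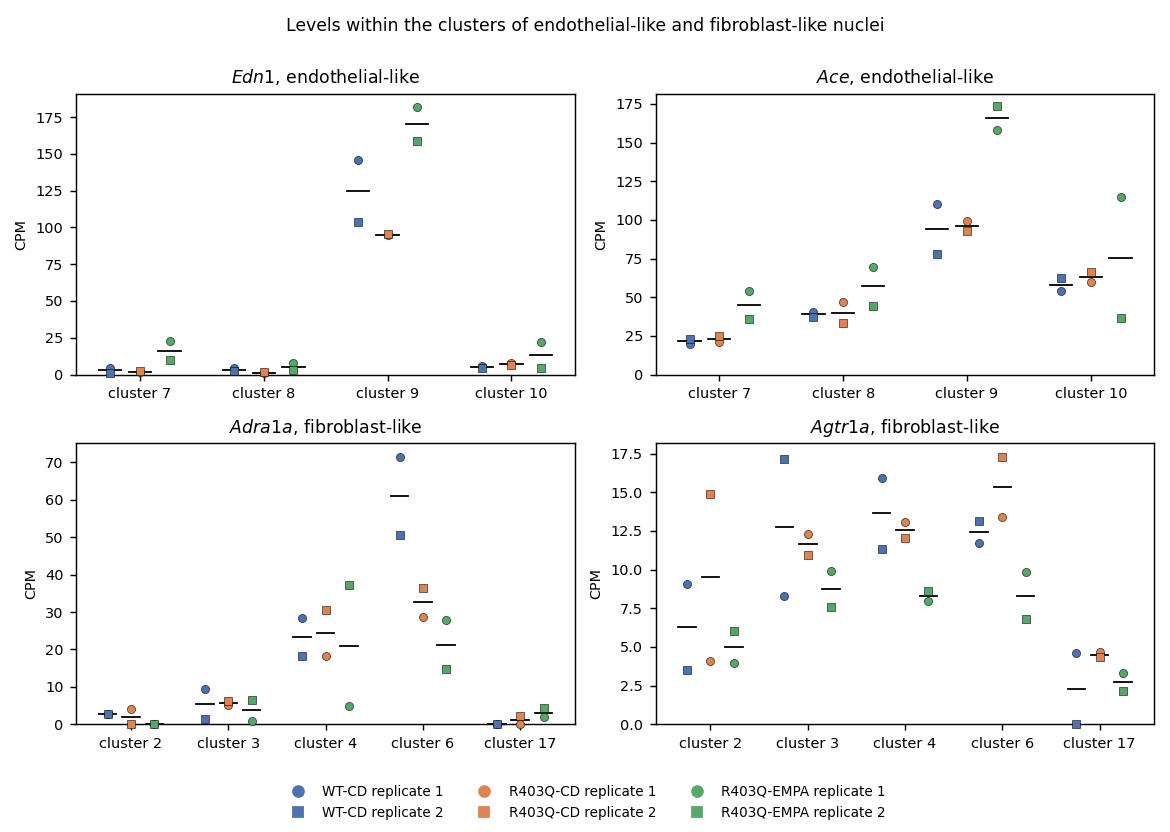
CPM of Edn1 and Ace within 4 endothelial-like clusters (7, led by Car4; 9, led by Gja5) and of Adra1a and Agtr1a within 5 fibroblast-like clusters (6, led by Grm8; 17, led by Postn), with 1 point per library and a bar at each group's mean. Edn1 is highest in cluster 9 in every library (94.6 to 182 CPM), and Adra1a in cluster 6 is highest in the WT-CD libraries (71.5 and 50.5 CPM).

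Ednra in fibroblast-like nuclei lay between 32.2 and 33.2 CPM in the 4 libraries on control diet and at 63.8 and 29.4 in R403Q-EMPA, so that its groups overlapped. Within the Postn cluster it lay at 121 CPM in R403Q-EMPA replicate 1 and 27.5 to 77.8 in the others. Edn1 in fibroblast-like nuclei lay at 10.0 to 14.6 CPM on control diet and at 22.6 and 12.2 in R403Q-EMPA, with a difference of 0.73 ± 0.28 (adjusted p = 0.313) from R403Q-CD and 0.23 without replicate 1. The 12 endothelial markers summed to 224 CPM in the fibroblast-like nuclei of that library and to 122 to 154 CPM in the other 5, and their part in this result was not tested.

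In mural cells the receptor genes showed no called change. Ednra in pericyte-like nuclei lay at 737 and 696 CPM for WT-CD, 699.9 and 662 for R403Q-CD, and 666 and 587 for R403Q-EMPA, and the fitted difference of R403Q-EMPA from WT-CD was −0.21 ± 0.14 (adjusted p = 0.587). Agtr1a there lay at 102 and 144, 139 and 154, and 158 and 154 CPM (0.31 ± 0.18, adjusted p = 0.523). Both genes were at their highest of any class in these nuclei in each group. Ednrb in pericyte-like nuclei was more variable, at 120.1 and 74.6, 113 and 182, and 257 and 120.1 CPM. Its difference of R403Q-EMPA from WT-CD was 0.93 ± 0.28 (adjusted p = 0.141), and 0.32 without R403Q-EMPA replicate 1. In smooth muscle-like nuclei Ednra lay at 499 and 423, 510.0 and 527, and 607 and 449 CPM, in overlapping groups.

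In endocardial-like nuclei Ednrb lay at 537 and 324 CPM for WT-CD, 349.8 and 433 for R403Q-CD, and 303 and 304 for R403Q-EMPA. The R403Q-EMPA libraries were the lowest, and the difference from WT-CD was −0.53 ± 0.21 (adjusted p = 0.259). Edn1 lay there at 47.7 and 45.9, 30.1 and 28.0, and 45.4 and 18.1 CPM. The R403Q-CD libraries were below both WT-CD libraries, and the difference was −0.69 ± 0.32 (adjusted p = 1.00), while the R403Q-EMPA libraries lay on either side of R403Q-CD.

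In myeloid-like nuclei Ednrb lay at 257 and 238, 195 and 192, and 129 and 205 CPM, and Ace at 25 and 17.6, 16.1 and 16.1, and 11.9 and 4.55 CPM. For Ednrb both WT-CD libraries were above the other 4, while the R403Q-EMPA libraries lay on either side of R403Q-CD. Its difference of R403Q-EMPA from WT-CD was −0.65 (adjusted p = 0.253). It was −0.30 (adjusted p = 0.662) without R403Q-EMPA replicate 1 and −1.02 (adjusted p = 0.0415) without R403Q-EMPA replicate 2. For Ace both R403Q-EMPA libraries were the lowest, with a difference from WT-CD of −1.15 (adjusted p = 0.291), and −1.94 (adjusted p = 0.366) without R403Q-EMPA replicate 1. Ednra lay at 3.85 and 0.882 CPM for WT-CD, 6.42 and 5.12 for R403Q-CD, and 8.38 and 12.1 for R403Q-EMPA, on 44 UMIs in all. Ednra passed the filter on low counts in this class through the R403Q-EMPA libraries, where it is highest. The 3 groups did not overlap, and the difference of R403Q-EMPA from WT-CD was 1.44 ± 0.54 (adjusted p = 0.355), not called. The markers of cardiomyocytes, a class with high Ednra, summed to 1821 and 1880, 2157 and 2357, and 2986 and 2212 CPM in the same nuclei, and their part in this was not tested. Within the Cd244a cluster Ace had 26, 17, 21, 14, 13 and 0 UMIs, from WT-CD replicate 1 to R403Q-EMPA replicate 2, in 23, 15, 25, 19, 36 and 5 nuclei. The 0 UMIs of R403Q-EMPA replicate 2, from 5 nuclei, allow a level of up to 228 CPM (3 UMIs), so no order between these libraries could be read from it.

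Of 83 other genes of these pathways, 73 were tested in at least 1 class, in 471 combinations. In R403Q-CD compared with WT-CD edgeR called 0 of these combinations, where 0.0151% were called over all genes, 24 (5.10%) had an unadjusted p under 0.05, compared with 4.31% over all genes, and DESeq2 called 2. In R403Q-EMPA compared with R403Q-CD 1 combination was higher and 1 lower, or 2 of 471 where 0.337% were called over all genes, and 68 (14.4%) had an unadjusted p under 0.05, compared with 9.72%. In R403Q-EMPA compared with WT-CD 2 combinations were higher and 6 lower, or 8 of 471 where 1.37% were called over all genes. Of these 8 combinations, 3 were of G protein genes (Gnao1 in 2 classes and Gna14 in 1), and 1 each was of a gene of the receptors, angiotensin, endothelin, desensitisation and amine clearance groups. None of the 28 effector genes, such as adenylyl cyclases and protein kinases, was called in that comparison (26 of 206 combinations at an unadjusted p under 0.05), and 16.3% of all 471 combinations had such a p, compared with 12.7% over all genes.

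In cardiomyocyte-like nuclei, R403Q-EMPA compared with WT-CD gave 3 lower and 1 higher of the 62 pathway genes tested, where 3.91% of all genes of the class were called. An unadjusted p under 0.05 was found for 20 of the 62 (32.3%), compared with 19.2% of all genes of the class. Mas1, the receptor of angiotensin-(1-7), lay at 8.96 and 9.36 CPM for WT-CD, 7.26 and 7.55 for R403Q-CD, and 2.96 and 3.93 for R403Q-EMPA (−1.43 ± 0.26, adjusted p = 0.0182). Mme, neprilysin, which degrades endothelin and natriuretic peptides, lay at 31.6 and 28.8, 20.6 and 20.2, and 14.3 and 11.6 CPM (−1.26 ± 0.16, adjusted p = 0.00503). Slc22a3, an uptake transporter of catecholamines and serotonin, lay at 29.96 and 34.3, 36.4 and 30.3, and 14.2 and 16.4 CPM (−1.13 ± 0.20, adjusted p = 0.0152). For each of these the R403Q-EMPA libraries were below the other 4, and for Mas1 and Mme the R403Q-CD libraries lay between the other groups. Gnao1, the alpha subunit of the G protein Go, rose from 17 and 17.1 in WT-CD to 98.5 and 54.0 CPM in R403Q-EMPA (2.08 ± 0.30, adjusted p = 0.00754), with 27.2 and 45.8 in R403Q-CD. With each library left out in turn, the fold change lay between −1.38 and −1.16 for Mme and between 1.63 and 2.42 for Gnao1, called each time. Mas1 (−1.20, adjusted p = 0.134) and Slc22a3 (−0.98, adjusted p = 0.130) were not called without R403Q-EMPA replicate 1.

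The atrial and natriuretic peptide gene Nppa lay at 63.0 and 33.4 CPM in these nuclei for WT-CD, 139 and 238 for R403Q-CD, and 1474 and 359 for R403Q-EMPA. The groups did not overlap, and R403Q-EMPA replicate 1 was far above replicate 2. The log2 fold change of R403Q-EMPA compared with WT-CD was 4.19 (adjusted p = 0.0071), and 2.90 (adjusted p = 0.00948) without R403Q-EMPA replicate 1. Nppb rose in the same comparison by 2.03 (adjusted p = 0.00453), and by 2.03 (adjusted p = 0.0222) without that library.

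In endocardial-like nuclei Gnao1 rose as well, from 10.3 and 13.4 in WT-CD to 29.9 and 30.2 CPM in R403Q-EMPA (1.23 ± 0.25, adjusted p = 0.0319). The 12 cardiomyocyte markers summed there to 1658 and 1179 CPM for WT-CD, 2535 and 1862 for R403Q-CD, and 2106 and 2693 for R403Q-EMPA. Their part in the rise of Gnao1 was not tested. Chrm2, the muscarinic M2 receptor that opposes beta receptors through Gi, fell from 202 and 215 to 83.1 and 103 CPM (−1.19 ± 0.25, adjusted p = 0.0365), and R403Q-CD lay at 220.0 and 118. In fibroblast-like nuclei Gna14, a member of the Gq family, lay at 94.7 and 91.9 CPM for WT-CD, 72.1 and 51.9 for R403Q-CD, and 20.6 and 25.8 for R403Q-EMPA. It fell compared with WT-CD (−2.05 ± 0.20, adjusted p = 0.00689) and with R403Q-CD (−1.46 ± 0.20, adjusted p = 0.0291). Gna14 is among the leading genes of the Grm8 cluster, whose share was lowest in R403Q-EMPA. Rgs6, which speeds the switching-off of G proteins, lay at 122 and 121, 64.6 and 56.8, and 58.0 and 66.7 CPM (−1.01 ± 0.14, adjusted p = 0.0177, R403Q-EMPA compared with WT-CD). With each library left out in turn, Gna14 compared with WT-CD lay between −2.23 and −1.87, called each time. Without R403Q-EMPA replicate 1 the other changes were not called, at 1.24 (adjusted p = 0.170) for Gnao1, −1.03 (adjusted p = 0.274) for Chrm2, −1.28 (adjusted p = 0.212) for Gna14 compared with R403Q-CD and −0.89 (adjusted p = 0.140) for Rgs6. Chrm2 was −1.10 (adjusted p = 0.0676) without WT-CD replicate 2. Without R403Q-CD replicate 1 and replicate 2, Rgs6 was −1.0 in both fits (adjusted p = 0.0503 and 0.0518), and Gna14 compared with R403Q-CD was −1.19 and −1.69 (adjusted p = 0.324 and 0.0631). Gnao1 was 1.02 (adjusted p = 0.0748) without WT-CD replicate 1, 1.22 (adjusted p = 0.0670) without R403Q-EMPA replicate 2, and 1.24 and 1.23 (adjusted p = 0.0529 and 0.0577) without either R403Q-CD library, compared with 1.23 with all libraries.

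In lymphoid-like nuclei the anchoring protein gene Akap6 was called higher in R403Q-EMPA than in R403Q-CD (3.25 ± 0.59, adjusted p = 0.0469), with 26 and 47 UMIs compared with 4 and 6. Without either R403Q-CD library it was 3.14 and 3.31 (adjusted p = 0.363 and 0.316), and without R403Q-EMPA replicate 2 it was 2.44 (adjusted p = 0.0845). The 12 cardiomyocyte markers summed to 6201 and 20291 CPM in the lymphoid-like nuclei of these R403Q-EMPA libraries, and to 3275 and 4133 in R403Q-CD. Akap6 passed the filter on low counts in this class through the R403Q-EMPA libraries, where it is high.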

How the data were processed

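Nuclei of 6 left ventricle libraries were examined. The authors isolated them from frozen tissue, prepared droplet 3′ libraries and deposited, for each library, a matrix of raw UMI counts per gene and barcode. The submitters' processing notes name Cell Ranger 8.0.1 and GRCm39, and whether intronic reads were counted is not given in the sources used here.

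Barcodes with at least 500 UMIs, at least 300 genes and at most 5% mitochondrial UMIs were kept, and doublets predicted per library by scrublet (3.93% to 6.72%) were removed, using scanpy 1.11.5 in Python 3.11.15. Any pair of libraries shared 23 to 56 barcode sequences. All libraries entered a single clustering with no integration step (2000 variable genes, 30 components, 15 neighbours, Leiden resolution 1, seed 1). The variable genes included Adra1a, Htr4, Edn1, Ednra and Ednrb. A cluster was named "-like" when at least 3 listed markers were 2-fold higher in it and seen in 10% of its nuclei, a scoring rule set after the data were seen. Of the kept nuclei, 41 stayed unnamed. The study's own cluster names were not used here.

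Sums of UMI counts by class (or cluster) and library were tested where every library held at least 20 nuclei, since nuclei of a library are not replicates. After filterByExpr and TMM scaling, edgeR 4.0.16's quasi-likelihood F test was run in R 4.3.3 over all 6 libraries, with Benjamini-Hochberg adjustment over the genes of a class and comparison, and log2 fold changes used a prior count of 2. The step was tested on simulated counts. CPM are not TMM-scaled. Shares of nuclei with a UMI were taken after thinning to 1000 UMIs, which left out 181, 149 and 102 nuclei of WT-CD, R403Q-CD and R403Q-EMPA. Replicate numbers follow the accession order and pair nothing. Counts of replicates differed by more than sampling noise (chi-square per degree of freedom 7.82 to 50.4), and none were merged.

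The 9 genes, the pathway list and the marker lists were chosen with earlier results of these data known. All 9 genes were named whatever their result, as were, of the pathway list, up to 3 called genes at each extreme of the change in a class and comparison, and the 2 genes most alike in level to each of the 9. The alternatives were another scaling, DESeq2 1.42.0, no filter on low counts, each library left out and only the compared groups in the fit. Further ones were other filters, doublets kept, resolutions 0.5 and 2, and the 9 genes and the pathway list left out of clustering. Atrial-type nuclei were also left out, in the cardiomyocyte-like class only. Tests within clusters were added after the data were seen.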

Additional observations from a re-analysis of the deposited data

How the results depend on the processing

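With 2 libraries a group, the number of calls depended on the test. The share of all genes called under each alternative is not given, so the counts below show only how calls moved and cannot be set against a background. For the 40 combinations of the 9 genes and classes, R403Q-CD compared with WT-CD gave 0 calls, and 1 with DESeq2, 2 with no filter on low counts and 1 with no mitochondrial filter. R403Q-EMPA compared with R403Q-CD gave 0, and 3 with DESeq2, 7 with no filter on low counts and 1 at resolution 0.5. R403Q-EMPA compared with WT-CD gave 2, and 5 with DESeq2, 11 with no filter on low counts and 1 with only these groups in the fit. Leaving out each library gave 0 to 1, 0 to 3 and 1 to 7 calls in the same order. For the 83 pathway genes the counts were 0, 2 and 8. In the first comparison DESeq2 gave 2, no filter 4 and doublets kept 1. In the second DESeq2 gave 8, no filter 28, only these groups in the fit 8, no mitochondrial filter 0 and at least 1000 UMIs per nucleus 1. In the third no filter gave 33. Leaving out each library gave 0 to 2, 0 to 8 and 5 to 20.

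For 26 changes of the 9 genes followed through 527 alternatives, 515 kept the direction, 459 stayed on the same side of the threshold, 42 became called and 14 lost a call. Not all of these alternatives are separate fits. Pericyte-like and endocardial-like nuclei each form a single cluster, so their fits within a cluster repeat the fits of the class. The 12 reversals came from fits within single clusters, and their cause was not tested. Ednra in cardiomyocyte-like cluster 12, R403Q-EMPA compared with WT-CD, was −0.052, and −0.26 without R403Q-EMPA replicate 1. Without that library, endothelial-like cluster 10 gave −0.79 for Ace and −0.67 for Edn1 compared with R403Q-CD, and −0.66 and −0.22 compared with WT-CD. Adra1a gave 0.18 and 0.57 in fibroblast-like clusters 3 and 4 compared with R403Q-CD, and 0.11 and 0.65 compared with WT-CD. Edn1 in fibroblast-like cluster 2, compared with R403Q-CD, was −0.10 with all libraries and −0.86 without R403Q-EMPA replicate 1. Leaving the 9 genes and the pathway list out of clustering, or leaving out atrial-type nuclei, kept all counts of calls within 1.5 times. Atrial-type nuclei were left out of the cardiomyocyte-like class only. The other classes kept their fits, so their counts could not change in that alternative.

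No paired analysis was possible because the labels give the libraries no replicate numbers shared between groups. Depth limits the lowest levels, since a library and class without a UMI allows up to 3 counts.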

Other observations

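A list of 5 genes known to rise in muscle under load was followed beside the receptor genes of cardiomyocyte-like nuclei. Of these, Xirp2, a gene of intercalated discs, lay at 606 and 559 CPM for WT-CD, 576 and 707 for R403Q-CD, and 896 and 945 for R403Q-EMPA, so that both R403Q-EMPA libraries were above the other 4. Nppb lay at 29.3 and 26.0, 39.4 and 74.6, and 122 and 115 CPM, with no overlap between the groups. Acta1, skeletal alpha-actin, lay at 17.9 and 21.0, 26.6 and 46.4, and 67.6 and 30.7 CPM, where R403Q-CD and R403Q-EMPA overlapped. Myh7, the slow myosin heavy chain gene, lay at 516 and 360.1, 409 and 389.5, and 420.2 and 334 CPM, in overlapping groups. Ankrd1 lay at 518 and 266, 226 and 431, and 583 and 259 CPM, in overlapping groups. The list summed to 1687 and 1232, 1277 and 1649, and 2089 and 1683 CPM. In R403Q-EMPA compared with WT-CD edgeR called only Nppb of this list, with adjusted p = 0.107 for Xirp2 and 0.0832 for Acta1.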
